A study of Homo sapiens with 16 samples.

Results

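The amino acid transporter families described here are the solute carrier (SLC) genes of families 1, 3, 6, 7, 36, 38 and 43, measured by RNA sequencing in 2 human cancer cell lines. Members were chosen by name alone, as all gene symbols in the deposited tables that begin with SLC, one of these family numbers, the letter A and a number. The rule gave 63 of 21453 symbols, with 7 in SLC1, 2 in SLC3, 20 in SLC6, 16 in SLC7, 4 in SLC36, 11 in SLC38 and 3 in SLC43. It also takes in SLC6A10P, SLC7A5P1 and SLC7A5P2, which are pseudogenes, and SLC7A6OS, a separate gene that overlaps SLC7A6 by 3786 bases on chromosome 16 in RefSeq. Where a symbol had several transcript rows, as 21 members did, the row with the highest mean was used.

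ECC-1 is an endometrial and T-47D a breast cancer cell line. Both were held for 5 days in RPMI-1640 free of phenol red, with 10% charcoal-stripped serum, so all groups share a hormone-poor medium. Each line was then given 0.02% DMSO (the control), 10 nM 17β-estradiol, 100 nM bisphenol A (BPA, a plastics monomer) or 100 nM genistein (a soy isoflavone) for 8 h. With 2 libraries in each of the 8 groups there are 16 libraries. Each line is a single cultured line and stands for no other endometrial or breast cells, and the labels do not say whether the 2 libraries of a group came from separate cultures, so p-values measure the spread between these libraries, which may be technical.

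Levels are given in RPKM (reads divided by transcript length in kb and by depth in M reads), further divided by a scale factor of 0.938 to 1.054 per library. The files hold no counts, and depth estimated from the steps between low values was 17.4 to 29.4 M reads per library, at which a transcript of 2 kb at 1 RPKM rests on 34.8 to 58.8 reads. Luminal breast markers summed to 854 to 1140 RPKM in T-47D and 5.31 to 7.44 in ECC-1, where PIP was listed at 0 in every library. Müllerian markers summed to 328 to 372 RPKM in ECC-1 and 0.439 to 0.745 in T-47D. Summed markers reached at most 31.8 RPKM for fibroblasts, 7.49 for leukocytes and 1.88 for endothelium in any library. The first estradiol library stood apart from its partner in both lines: log2 values of all genes differed between the pair with an SD of 0.34 for ECC-1 and 0.41 for T-47D, while the pairs of other treatments gave 0.17 to 0.24. Calls with estradiol are therefore also given without both of these libraries.

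Amino acid transporters set which amino acids a cell takes up, exchanges or releases. SLC7A5 (LAT1) imports large neutral amino acids such as leucine and reaches the cell surface only when bound to the heavy chain SLC3A2 (CD98hc), and SLC7A8 (LAT2), SLC7A6 and the cystine-glutamate exchanger SLC7A11 (xCT) are other light chains of the same heavy chain. SLC1A5 (ASCT2) and the SLC38 carriers bring in glutamine and small neutral amino acids with sodium, and many SLC6 carriers move neurotransmitters, taurine, betaine or creatine. Estrogens act in both tissues through estrogen receptor alpha, a transcription factor, and growth driven by them places a demand on amino acid supply.

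Promoters are shown for the 3 members that changed with estradiol, as described further on, and that have a single promoter in the RefSeq table used (build GRCh38.p14). Each is the 250 bases before the transcription start, read 5′ to 3′ on the gene's strand, and capitals mark a match to the E-box CACGTG. Of 63 members, 45 were in the table.
SLC7A5, chr16:87869508-87869757, minus strand: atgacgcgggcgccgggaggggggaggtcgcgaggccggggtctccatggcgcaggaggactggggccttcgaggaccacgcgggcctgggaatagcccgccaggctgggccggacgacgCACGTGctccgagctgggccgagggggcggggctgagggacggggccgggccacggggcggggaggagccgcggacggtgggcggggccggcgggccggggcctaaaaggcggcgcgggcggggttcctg
SLC6A20, chr3:45796537-45796786, minus strand: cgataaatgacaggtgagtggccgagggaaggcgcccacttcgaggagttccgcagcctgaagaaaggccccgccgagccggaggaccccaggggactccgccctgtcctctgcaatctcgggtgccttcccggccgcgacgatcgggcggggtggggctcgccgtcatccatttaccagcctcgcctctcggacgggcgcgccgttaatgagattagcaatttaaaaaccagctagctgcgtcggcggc
SLC6A4, chr17:30235698-30235947, minus strand: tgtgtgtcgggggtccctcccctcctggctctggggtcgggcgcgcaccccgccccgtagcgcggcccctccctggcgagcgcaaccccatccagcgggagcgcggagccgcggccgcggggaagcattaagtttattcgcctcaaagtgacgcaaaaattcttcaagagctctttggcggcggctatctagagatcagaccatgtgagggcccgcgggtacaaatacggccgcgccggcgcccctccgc
The single E-box of SLC7A5 began 130 bases before the start, and none was present in the windows of SLC6A20 and SLC6A4. Over both strands of these windows, CACGTG was found in 9 of the 67 member promoters (13.4%) and in 6.34% of all 35116. The full estrogen response element (GGTCA, any 3 bases, then TGACC) was in 0 of the 67 and in 0.0399% of all. The single repeat AGGTCA was in 7 (10.4%) against 12.1%, and the amino acid response motif TGATGNAAN in 2 (2.99%), those of SLC1A3 and SLC1A5, against 3.13%. A match is a string of letters in a window and not a binding site.

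Of the 63 members, 34 reached 1 RPKM before scaling in at least 2 libraries and were tested, and 29 were not. SLC1A2, at 1.04 and 1.06 scaled RPKM in its 2 highest libraries, is among those not tested. Among the members not tested, SLC6A5 and SLC7A3, carriers of glycine and of cationic amino acids, were listed at 0 in all 16 libraries, and 12 members in all stayed under 0.1 RPKM everywhere. Both heavy chains, 8 of 11 SLC38 carriers, 4 of 8 SLC7 light chains and 4 of 7 SLC1 carriers were tested, against 5 of 12 neurotransmitter and osmolyte carriers and 2 of 7 other carriers of SLC6. The pool of transcripts was held by few genes. The 8 highest members of a library carried 79 and 81.5% of the summed RPKM of all members in the 2 ECC-1 control libraries, and 73.2 and 72.3% in those of T-47D.

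RPKM is per length, so levels can be set side by side between genes. The pseudogene SLC7A5P1 is an exception, since it shares sequence with SLC7A5 and may hold its reads, so its rank is uncertain. In ECC-1 controls the highest were SLC3A2 at 146 ± 17.3 RPKM, SLC7A5 at 116 ± 27.7 and SLC1A5 at 92.5 ± 10.5 (mean ± SD, n = 2, as throughout). Next came the glutamine carriers SLC38A1 at 85.4 ± 2.57 and SLC38A2 at 83.3 ± 0.614. After them stood SLC7A5P1 at 41.1 ± 13.8, the arginine and lysine carrier SLC7A1 at 27.3 ± 1.14 and SLC36A4 at 20.8 ± 1.45. From SLC3A2 to SLC38A2, neighbours in this order differ by no more than 2 SDs of the more variable of each pair. In T-47D controls SLC38A2 led at 120 ± 6.85, followed by SLC3A2 at 95.6 ± 12.8, SLC38A1 at 88.2 ± 16.1, SLC7A5 at 82.5 ± 10.2 and SLC1A5 at 48.4 ± 3.04. SLC38A10 (27.7 ± 2.03), SLC7A8 (26.2 ± 3.97) and SLC7A5P1 (25.2 ± 0.27) came next, in an order that their SDs do not resolve. Both lines thus shared the leucine exchanger with its heavy chain and the glutamine carriers at the top of the list, and differed in the members below them.

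The control libraries of the lines were compared to ask which carriers each line uses without hormone. T-47D had 13 members higher and 11 lower than ECC-1, 24 of 34 or 70.6% of those tested, where 76.7% of all 13827 genes tested differed, 39.6% higher and 37.1% lower (limma with Benjamini-Hochberg adjusted p under 0.05, the call rule throughout). Several members passed the low-value filter through 1 line alone, so this share says nothing particular about the families. As in any bulk sample, fewer cells of a type and less RNA per cell cannot be told apart.

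Of the 34 tested members, the log2 difference, taken with the pseudocount of 0.5, was highest in SLC7A8 and lowest in SLC7A11, both light chains that pair with SLC3A2. SLC7A8, which moves neutral amino acids, read 23.4 and 29 RPKM in the T-47D controls and 0.135 and 0.0731 in those of ECC-1, a log2 difference of 5.46 (SE 0.15, adjusted p = 4.35e-14). All 8 T-47D libraries were at 15.3 or higher and all 8 ECC-1 libraries at 0.172 or lower. SLC7A11, the cystine importer that feeds glutathione synthesis, went the other way, at 0.859 and 0.891 RPKM in T-47D against 21.4 and 19.7 in ECC-1 (log2 difference -3.93, SE 0.18, adjusted p = 2.48e-11). SLC7A6, a light chain for cationic and neutral amino acids, was higher in T-47D, at 24.7 and 25.4 RPKM against 8.55 and 8.69 (log2 difference 1.48, SE 0.12, adjusted p = 2.3e-08). Its neighbour SLC7A6OS was higher too (0.56 on the log2 scale), and since the libraries keep no strand, reads over their shared bases cannot be assigned. For SLC7A5 itself the difference was -0.47 (95% interval -1.06 to 0.11, adjusted p = 0.127), and for SLC3A2, called lower in T-47D, it was -0.61 (SE 0.21, adjusted p = 0.0146). The pseudogene SLC7A5P2 was called lower (-0.62, adjusted p = 0.0459), a call lost in 10 of 27 alternatives. The SLC3A2 call was lost with quantile normalization, without the second ECC-1 control library and without the second T-47D control library.

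The cationic amino acid carrier SLC7A1 and 3 of the 4 tested SLC1 carriers were lower in T-47D. SLC7A1 was at 3.17 and 4.05 RPKM in T-47D controls and 26.5 and 28.1 in ECC-1 (log2 difference -2.77, SE 0.18, adjusted p = 1.28e-09). The glutamine carrier SLC1A5 differed by -0.92 (46.3 and 50.5 RPKM against 85 and 99.9), and the glutamate carriers SLC1A1 and SLC1A3 by -0.75 and -1.38. SLC1A4, a carrier of alanine, serine and cysteine, read 10.7 ± 0.256 in T-47D and 10.2 ± 0.839 in ECC-1, with a difference of 0.07 (95% interval -0.23 to 0.38). SLC7A1, SLC1A5, SLC1A1 and SLC1A3 thus stood higher in ECC-1, and SLC1A4 did not pass the test.

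Osmolyte and neurotransmitter carriers of SLC6 split by line. The creatine transporter SLC6A8 was at 17.8 ± 1.47 RPKM in T-47D and 2.45 ± 0.209 in ECC-1 (log2 difference 2.63), and the taurine transporter SLC6A6 at 12.9 ± 2.2 and 2.68 ± 0.191 (2.07). SLC6A10P, a pseudogene of SLC6A8, was also higher (1.00), and 15.8% of its 36-base stretches occur in SLC6A8 transcripts, so its reads may be shared. SLC6A4, the serotonin transporter, and SLC6A17, a vesicular carrier of neutral amino acids, were higher in T-47D by 1.53 and 2.32. They read 1.11 ± 0.195 and 2.48 ± 0.65 RPKM in T-47D, and 0.0586 ± 0.00929 and 0.0931 ± 0.0449 in ECC-1. The betaine and GABA transporter SLC6A12 and the proline carrier SLC6A20 were higher in ECC-1, at 2.03 ± 0.0833 and 3.43 ± 0.358 RPKM against 0.588 ± 0.0975 and 0.252 ± 0.0677 (log2 differences -1.22 and -2.39).

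Among the remaining families, SLC43A3, which transports purine bases, was at 6.04 ± 0.493 RPKM in T-47D and 0.188 ± 0.19 in ECC-1 (log2 difference 3.28). SLC38A10 was higher in T-47D by 2.20, SLC38A9, a lysosomal arginine sensor, by 0.56, SLC38A2 by 0.52 and SLC36A1, a proton-coupled lysosomal carrier, by 0.48. SLC36A4 was lower by a log2 difference of -0.63 and SLC38A8 by -1.34. SLC38A8 was at 0.0224 RPKM in T-47D and 0.827 in ECC-1, where the pseudocount of 0.5 compresses log2 differences. The SLC38A9 call was lost with quantile normalization, without either T-47D control library and without the second ECC-1 control library. SLC43A2, a system L carrier that works without SLC3A2, did not pass the test (23.2 ± 6.3 against 19.7 ± 2.53 RPKM), nor did SLC38A1 (88.2 ± 16.1 against 85.4 ± 2.57).

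**Figure D1:**
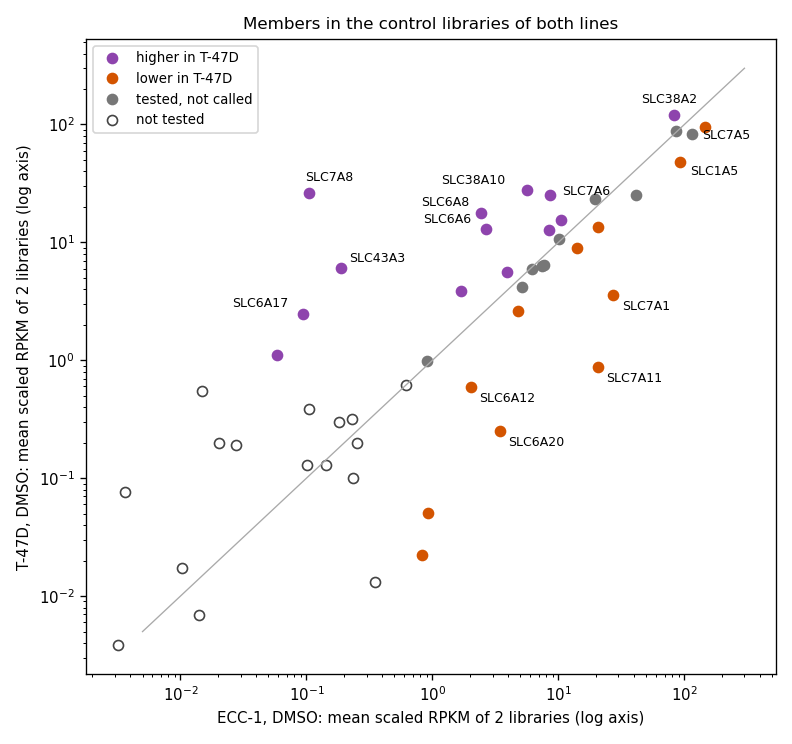
Mean scaled RPKM of each member over the 2 DMSO libraries of ECC-1 (x axis) and of T-47D (y axis), both on log axes, for the 50 members above 0 in both lines; 13 with a mean of 0 in a line cannot be drawn. Colours mark members called higher or lower in T-47D, grey points were tested and not called, open circles were not tested, and the line is equality; SLC7A8 lies farthest above it and SLC7A11 farthest below among the called members above 1 RPKM in the higher line.

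Estradiol was compared with DMSO in ECC-1 to ask which carriers respond to the hormone. It raised 5 members and lowered 1, which is 6 of 34 (17.6%), where 1.89% of all genes tested changed in either direction, 1.42% upward and 0.477% downward. The taurine transporter SLC6A6, the leucine exchanger SLC7A5 with its pseudogenes SLC7A5P1 and SLC7A5P2, and the betaine transporter SLC6A12 rose, and the proline carrier SLC6A20 fell. The 6 include both pseudogenes, which share sequence with SLC7A5; without them 4 of 32 members (12.5%) were called, and 2 of 32 (6.25%) without the first estradiol libraries of both lines. Over the 34 members the median log2 difference was 0.15, against 0.00 over all genes, and 24 were above 0. The summed RPKM of all members was 712 and 815 in the controls and 1450 and 1070 with estradiol. The sum, the median and the 24 include both pseudogenes. Mean RPKM went from 116 to 329 for SLC7A5, from 41.1 to 124 for SLC7A5P1 and from 14.1 to 42.8 for SLC7A5P2. The sum is thus weighted to few genes and does not show a rise across the families. Leaving out the first DMSO library or the first estradiol library of ECC-1 reduced the calls to 1, leaving out the second estradiol library raised them to 13, and leaving out the first estradiol libraries of both lines gave 4 with the pseudogenes. The count was also 4 with a pseudocount of 0.1, in a test of genes averaging 5 RPKM or more, with libraries weighted by quality and in a fit on ECC-1 alone. Shares of all genes in these other fits are not given here, so their counts and the 6.25% cannot be set against the 1.89%.

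SLC6A6 takes up taurine, an osmolyte, with sodium and chloride. It read 2.54 and 2.81 RPKM in the ECC-1 controls and 14.7 and 10.9 with estradiol. Both treated libraries stood far above both controls, and the means differed 4.78-fold (log2 difference 2.05, SE 0.19, adjusted p = 1.34e-05). Without both first estradiol libraries the log2 difference was 1.84 (adjusted p = 0.000196), and the call was kept in all alternatives run, between 1.84 and 2.26. In T-47D, where the control level was already 14.5 and 11.4 RPKM, estradiol libraries read 15.8 and 13.2 and overlapped the controls (log2 difference 0.17, 95% interval -0.24 to 0.57).

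SLC7A5 read 96.4 and 136 RPKM in the ECC-1 controls and 411 and 247 with estradiol, the highest level of any member in these libraries. The groups did not overlap, and the log2 difference was 1.47 (SE 0.27, adjusted p = 0.00864). The 2 estradiol libraries differ widely, and without both first estradiol libraries the difference was 1.11 (adjusted p = 0.00357). It missed the threshold without the first ECC-1 DMSO library (1.23, adjusted p = 0.19), without the first ECC-1 estradiol library alone (1.11, adjusted p = 0.185) and in a fit on ECC-1 alone (adjusted p = 0.0524). SLC7A5P1 and SLC7A5P2 followed SLC7A5, at log2 differences of 1.60 and 1.57. Of their 36-base stretches, 21.3 and 45.3% occur in SLC7A5 transcripts, and their level relative to SLC7A5 stayed within 0.325 to 0.428 and 0.116 to 0.147 over the ECC-1 libraries, so they are no separate evidence beside SLC7A5. The sources used here do not say how reads that match several places were treated.

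The heavy chain SLC3A2 had a smaller positive value than its partner and did not pass the test, also with both first estradiol libraries left out. It read 134 and 159 RPKM in controls and 218 and 200 with estradiol (log2 difference 0.52, 95% interval 0.07 to 0.96, adjusted p = 0.263). The ratio of SLC7A5 to SLC3A2 was 0.719 and 0.855 in the ECC-1 controls, 1.88 and 1.24 with estradiol, 1.03 and 1.06 with BPA and 1.17 and 1.19 with genistein. The ratio was thus higher in each of the 6 treated libraries than in both controls; this comparison was made without a test.

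SLC6A12, which carries betaine and GABA, read 1.97 and 2.09 RPKM in controls and 4.41 and 4.08 with estradiol (log2 difference 0.91, SE 0.21, adjusted p = 0.0369). SLC6A20, a carrier of proline and other imino acids, read 3.68 and 3.18 in controls and 1.99 and 1.92 with estradiol (log2 difference -0.67, SE 0.14, adjusted p = 0.0197). For both the groups did not overlap, yet the calls were lost in 11 and 7 of 26 alternatives. Both were lost with a pseudocount of 0.1 and with libraries weighted by quality, that of SLC6A12 also with no low-value filter and that of SLC6A20 in a fit on ECC-1 alone. Without both first estradiol libraries the values were 0.85 (adjusted p = 0.144) and -0.70 (adjusted p = 0.07), without the first ECC-1 DMSO library 0.87 (adjusted p = 0.293) and -0.58 (adjusted p = 0.28), and without the second 0.94 (adjusted p = 0.162) and -0.77 (adjusted p = 0.0565). SLC6A12 also missed the threshold without either BPA library of ECC-1 or either T-47D DMSO library, when its value stayed at 0.91.

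Other carriers of glutamine, cystine and cationic amino acids had positive values that did not pass. SLC1A5 read 85 and 99.9 RPKM in controls and 153 and 114 with estradiol (log2 difference 0.52, adjusted p = 0.125). SLC7A11 read 21.4 and 19.7 against 33.9 and 25.8 (0.52, adjusted p = 0.194), SLC7A1 26.5 and 28.1 against 48.2 and 30.7 (0.49, adjusted p = 0.21) and SLC7A6 8.55 and 8.69 against 12.9 and 10.5 (0.41, adjusted p = 0.122). In each the first estradiol library was the higher one. Without the second, the log2 differences rest on the first library alone and were 0.73 for SLC1A5, 0.81 for SLC7A1 and 0.71 for SLC7A11. With both first estradiol libraries left out, SLC1A5, SLC7A11, SLC7A1 and SLC7A6 did not pass the test. SLC38A2 was at 83.7 and 82.9 RPKM in controls and 83.6 and 80.6 with estradiol, a difference of -0.02 with an interval of -0.32 to 0.28.

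**Figure D2:**
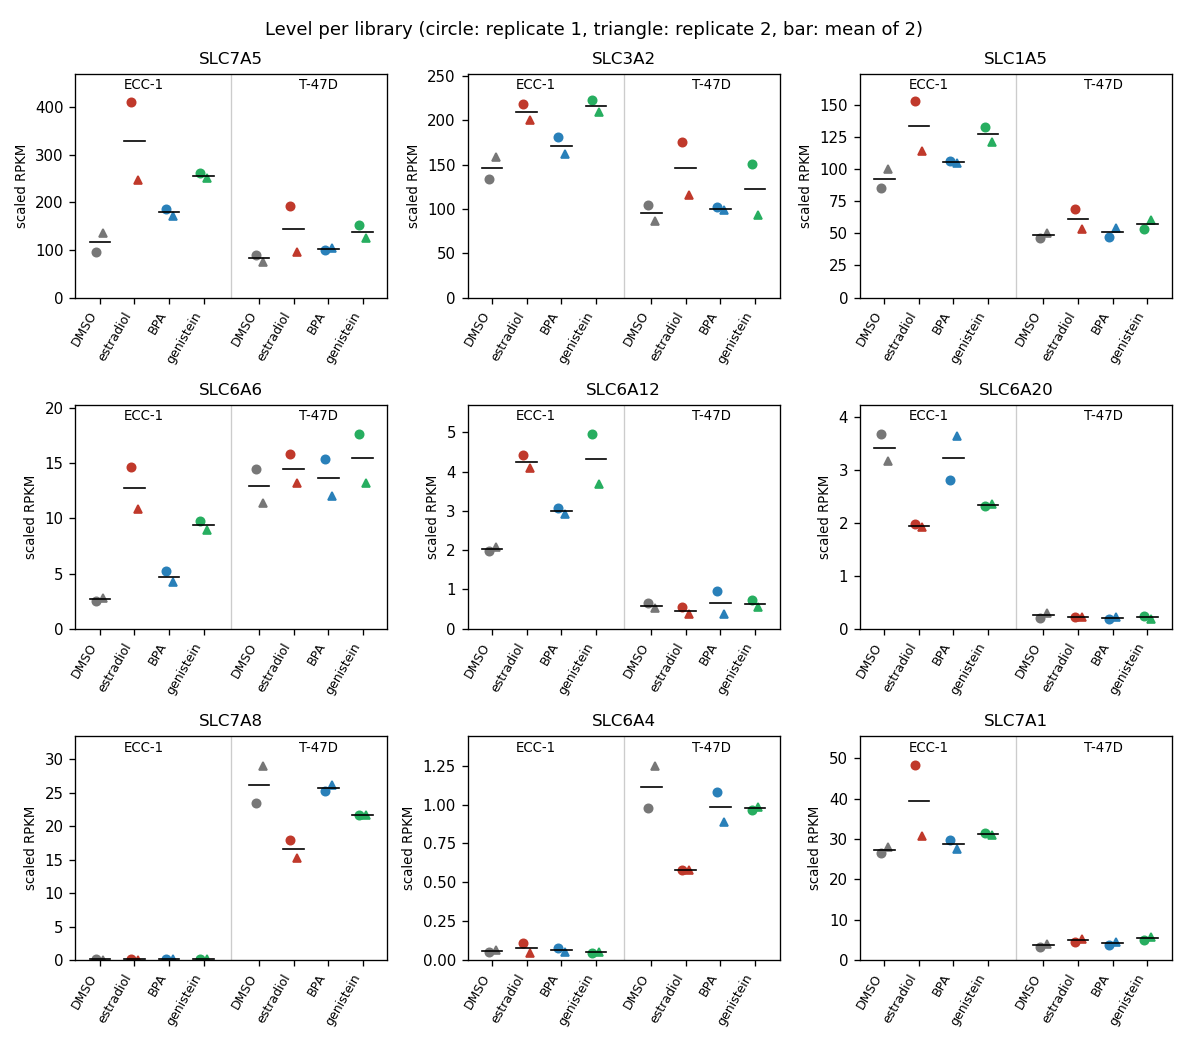
Scaled RPKM of 9 members in every library (y axis, linear, from 0), by treatment within ECC-1 (left of each panel) and T-47D (right); circles are first and triangles second libraries, and bars are the mean of 2. SLC6A6 in ECC-1 rises from 2.54 and 2.81 RPKM in DMSO to 14.7 and 10.9 with estradiol, while its T-47D libraries lie between 11.4 and 17.7 RPKM in all treatments.

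Genistein in ECC-1 changed 2 of 34 members (5.88%), SLC6A6 and SLC7A5P2, both higher, where 0.969% of all genes changed and 0.81% were higher. Without the pseudogenes it was 1 of 32. Counts of members under other settings, given below, have no share of all genes beside them. SLC6A6 read 9.78 and 8.96 RPKM with genistein against 2.54 and 2.81 in controls (log2 difference 1.64, SE 0.19, adjusted p = 0.000164), and this call was kept in all alternatives run. SLC7A5 read 261 and 251 against 96.4 and 136, with no overlap (log2 difference 1.16, 95% interval 0.58 to 1.74, adjusted p = 0.0647). It missed the threshold in this fit and passed it with both first estradiol libraries left out of the fit (adjusted p = 0.000374), when SLC1A5, SLC6A12 and SLC7A5P1 passed too and 6 members were called. SLC7A5P2, at 31.1 and 35 against 12.4 and 15.7 (1.21, adjusted p = 0.0436), is subject to the same sharing of reads with SLC7A5, and its call was lost in 15 of 27 alternatives, among them those leaving out either DMSO library (adjusted p = 0.493 and 0.13). Other values with genistein were 4.95 and 3.69 RPKM for SLC6A12 (0.92, adjusted p = 0.0523), 223 and 210 for SLC3A2 (0.57, adjusted p = 0.396), 133 and 121 for SLC1A5 (0.46, adjusted p = 0.321) and 2.33 and 2.36 for SLC6A20 (-0.46, adjusted p = 0.235). The members that changed with estradiol thus took the same sign with genistein; both comparisons share the DMSO libraries, so this is no independent evidence. SLC6A6 was the single member called when any 1 of the DMSO, BPA or genistein libraries of ECC-1 or of the T-47D DMSO libraries was left out, and 5 members were called without either T-47D estradiol library.

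BPA in ECC-1 called 0 of 34 members by limma, where 0.195% of all genes changed. An unadjusted p under 0.05 was found for 7 members (20.6%), against 2.51% of all genes. The 7 include SLC7A5P1 and SLC7A5P2, which are no separate evidence beside SLC7A5. They also include SLC1A3 and SLC38A8, which reached 1 RPKM only in treated ECC-1 libraries and so passed the low-value filter where they are high. The 20.6% is therefore not independent of shared reads or of that filter. SLC6A6 read 5.22 and 4.23 RPKM, above both controls, and its log2 difference was 0.71 (adjusted p = 0.525), with a 95% interval of 0.31 to 1.12. SLC7A5 read 186 and 172 (0.64, interval 0.06 to 1.22, adjusted p = 1) and SLC6A12 3.08 and 2.91 (0.46, interval 0.02 to 0.91, adjusted p = 1). These libraries lay between the controls and the genistein libraries for SLC6A6, SLC7A5 and SLC6A12. With limma's weighting of libraries by their quality, 2 members passed, SLC6A6 (adjusted p = 0.0264) and SLC7A5P2 (adjusted p = 0.032). SLC6A20 overlapped its controls, at 2.82 and 3.65 RPKM.

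Genistein and BPA were both given at 100 nM for 8 h and can be compared directly. Over 34 members in each of the 2 lines, 0 differed in ECC-1 by limma's adjusted p (0.0434% of all genes) and 0 in T-47D (0.405%). At an unadjusted p under 0.05 there were 0 members in T-47D and 3 (8.82%) in ECC-1, against 1.49% of all genes in ECC-1. The share of all genes at that threshold is not given here for T-47D, so its count of 0 says nothing particular about the families. The 3 in ECC-1 were SLC6A6, higher with genistein by 0.92 (95% interval 0.52 to 1.33, adjusted p = 0.188, and 0.00222 with libraries weighted by quality), SLC6A12 by 0.45 (interval 0.01 to 0.90) and SLC6A20, with a difference of -0.38 (interval -0.68 to -0.08), the latter both at an adjusted p of 1. For SLC7A5 the difference was 0.52, with an interval from -0.07 to 1.1. BPA is a bisphenol and genistein an isoflavone. These intervals do not show that the compounds act alike on the carriers. Estradiol was given at 10 nM, so its values stand beside those of the compounds without a comparison of potency.

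**Figure D3:**
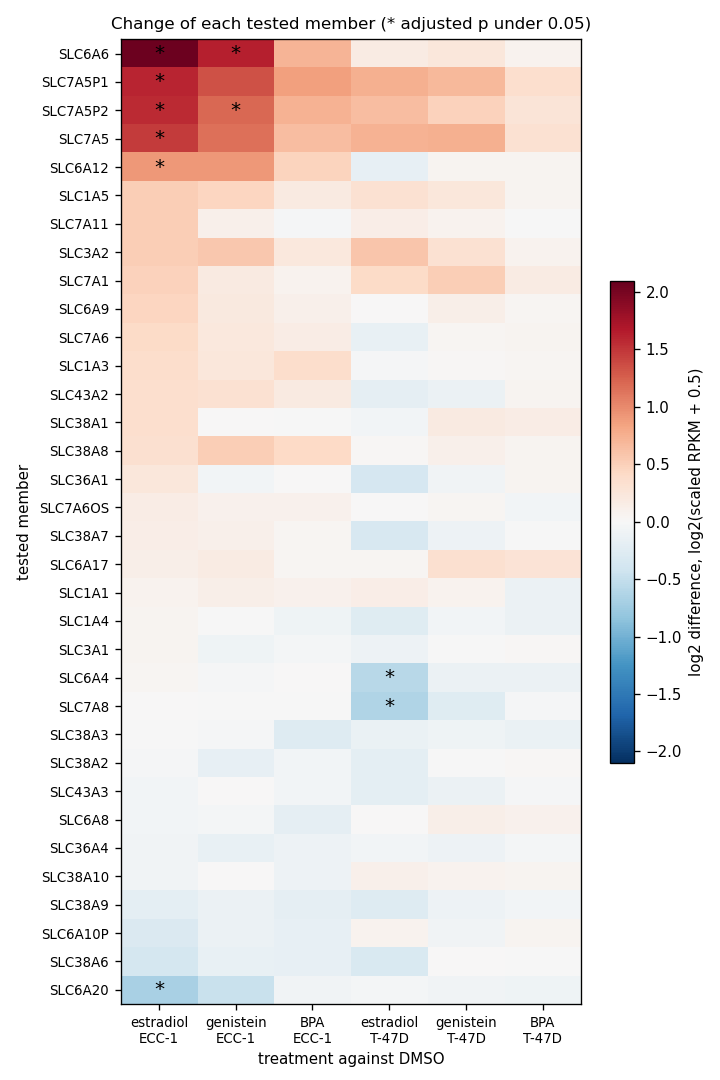
Log2 difference of each of the 34 tested members (rows) for each treatment against DMSO in each line (columns), on the log2(scaled RPKM + 0.5) scale, red for higher and blue for lower. Asterisks mark an adjusted p under 0.05: 6 in the ECC-1 estradiol column, 2 in the ECC-1 genistein column and 2 in the T-47D estradiol column; columns of 1 line share its DMSO libraries.

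In T-47D, estradiol lowered 2 of 34 members (5.88%), SLC7A8 and SLC6A4, and raised 0, where 3.22% of all genes changed in either direction, 1.11% being lower and 2.1% higher. The median log2 difference was -0.04 over the members and -0.01 over all genes. An unadjusted p under 0.05 was found for 8 members (23.5%), against 14.8% of all genes. The 8 include SLC7A5 with both of its pseudogenes, which may share its reads and were all far higher in the first estradiol library than in the second. They also include SLC6A4, whose passage of the low-value filter is described below. The 23.5% therefore does not count separate genes alone. SLC7A8 read 23.4 and 29 RPKM in controls and 18 and 15.3 with estradiol, with no overlap (log2 difference -0.63, SE 0.15, adjusted p = 0.0274). Without both first estradiol libraries it was -0.74 (adjusted p = 0.0127). The SLC7A8 call was lost in 5 of 27 alternatives. These were without the second T-47D DMSO library (-0.48), in a fit on T-47D alone (adjusted p = 0.114), with a pseudocount of 0.1, with no low-value filter and with libraries weighted by quality. SLC6A4, which takes up serotonin, read 0.975 and 1.25 RPKM in controls and 0.576 and 0.578 with estradiol, or an estimated 163 and 142 reads against 91 and 76 (log2 difference -0.58, SE 0.13, adjusted p = 0.0262). SLC6A4 reached 1 RPKM only in the second DMSO and the first BPA library of T-47D, so it passed the low-value filter through groups where it is high, and neither its call nor the share of 5.88% is independent of that filter. Its call was lost without both first estradiol libraries (-0.58, adjusted p = 0.0705), without the first T-47D estradiol library (adjusted p = 0.1) and without the second T-47D DMSO library (-0.45, adjusted p = 0.334). The count of calls was 0 without that DMSO library and 10 without the second estradiol library.

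The leucine exchanger and its heavy chain had positive values in T-47D that rest on 1 library. SLC7A5 read 89.8 and 75.3 RPKM in controls and 193 and 96.2 with estradiol (log2 difference 0.72, 95% interval 0.14 to 1.31, adjusted p = 0.211), and SLC3A2 105 and 86.6 against 176 and 116 (0.58, adjusted p = 0.182). The second estradiol library lies close above the controls in both genes. Without it the values were 1.22 and 0.88, from the first library alone. With both first estradiol libraries left out, SLC7A5 and SLC3A2 did not pass the test. In the same libraries the ratio of SLC7A8 to SLC7A5 was 0.26 and 0.385 in controls, 0.0933 and 0.16 with estradiol, 0.249 and 0.25 with BPA and 0.142 and 0.173 with genistein. All 6 treated libraries thus held less of the LAT2 transcript per LAT1 transcript than either control, those with BPA close to the lower control; no test was made.

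**Figure D4:**
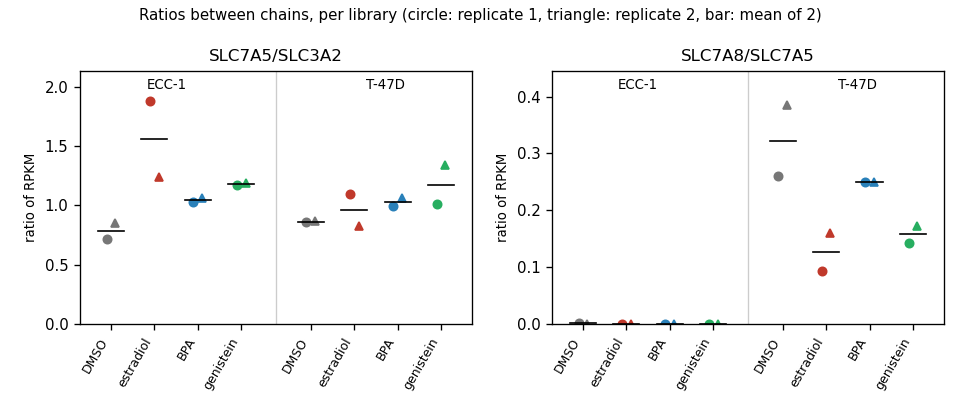
Ratio of SLC7A5 to SLC3A2 (left panel) and of SLC7A8 to SLC7A5 (right panel) in RPKM per library (y axes, linear, from 0), by treatment within each line; circles are first and triangles second libraries, and bars are the mean of 2. In ECC-1 the left ratio is 0.719 and 0.855 in DMSO and 1.03 to 1.88 in the treated libraries, and the right ratio in T-47D is 0.26 and 0.385 in DMSO and 0.0933 and 0.16 with estradiol.

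Genistein in T-47D called 0 of 34 members by limma (0.803% of all genes, 0.781% higher). An unadjusted p under 0.05 was found for 2 members (5.88%) and for 5.79% of all genes, so this count says nothing particular about the families. The 2 members were SLC7A5, at 152 and 125 RPKM against 89.8 and 75.3 (log2 difference 0.74, 95% interval 0.16 to 1.33, adjusted p = 0.495), and SLC7A1, at 4.98 and 5.71 against 3.17 and 4.05 (0.51, interval 0.14 to 0.89, adjusted p = 0.42). Neither overlapped its controls, and with both first estradiol libraries left out of the fit SLC7A5 and SLC7A1 passed (adjusted p = 0.0142 and 0.0351). BPA in T-47D called 0 of 34 members by limma and 0 of all genes (0%), and 0 members had an unadjusted p under 0.05, against 0.839% of all genes. SLC7A5 read 101 and 105 RPKM there (0.32, interval -0.26 to 0.90).

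Whether a treatment changed a member differently in the lines was tested as an interaction, the T-47D difference minus that in ECC-1. For estradiol 1 of 34 members passed (1.73% of all genes, 0.839% in the direction of the member). For genistein 1 passed (0.586%, with 0.347% in the direction of the member), and for BPA 0 by limma (0.0434%). With BPA 1 member had an unadjusted p under 0.05. The share of all genes at that threshold is not given here, so this count says nothing particular about the families. The member that passed was SLC6A6 for both estradiol and genistein. Its interaction was -1.89 with estradiol (95% interval -2.46 to -1.32, adjusted p = 0.00123) and -1.81 without both first estradiol libraries (adjusted p = 0.00493), when SLC7A5P2 was called too (-1.26). Without the second ECC-1 estradiol library 7 members were called, without the first T-47D estradiol library 3, and without the second T-47D estradiol library or either T-47D BPA library 2. With genistein the SLC6A6 interaction was -1.39 (interval -1.96 to -0.82, adjusted p = 0.0234), a call lost without either DMSO library or either genistein library of ECC-1, without the first T-47D DMSO library, without the second T-47D genistein library and with no low-value filter, with values of -1.60 to -1.19. For SLC7A5 the estradiol interaction was -0.75 (interval -1.57 to 0.07, adjusted p = 0.346), for SLC7A8 -0.64 (adjusted p = 0.153), for SLC6A12 -1.08 (adjusted p = 0.0893) and for SLC6A20 0.63 (adjusted p = 0.146). A different response of these 4 carriers in the 2 lines was therefore not shown. SLC7A8 in ECC-1 and SLC6A20 in T-47D were near the pseudocount of 0.5 or below it, where log2 differences are compressed.

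Some members under the filter were read from estimated read numbers, with exact 95% intervals that cover counting error only. SLC6A15, and SLC1A2 and SLC6A11 further below, were chosen after their values were seen. Their intervals and the position of their treated libraries are therefore no test. Read numbers of most other untested members are not given, so those named do not stand for the untested members as a set. The cationic amino acid carrier SLC7A2 had 8 reads in the 2 ECC-1 DMSO libraries together and 68 with estradiol, 38 with BPA and 64 with genistein. Relative to depth these are 11.7 times (interval 5.64 to 28.3), 4.66 times (2.14 to 11.6) and 9.27 times (4.43 to 22.4) the control. Its levels were 0.0187 and 0.0217 RPKM in controls and 0.25 and 0.231 with estradiol, and in T-47D 0.121 to 0.278 in all 8 libraries. SLC6A15, a carrier of branched-chain amino acids and proline, had 51 reads in ECC-1 controls and 82, 115 and 107 with estradiol, BPA and genistein, rates 2.22, 2.21 and 2.43 times the control. All 6 treated libraries of both genes lay above both controls.

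In T-47D the glial glutamate carrier SLC1A2 had 273 reads in controls, 450 with estradiol (1.59 times the rate, interval 1.37 to 1.86) and 437 with genistein (1.83 times, 1.57 to 2.13), while the BPA libraries had 139 and 159. The GABA carrier SLC6A11 had 63 reads in controls, 92 with estradiol (1.41 times, 1.01 to 1.98), 103 with BPA (1.89 times, 1.37 to 2.63) and 113 with genistein (2.05 times, 1.49 to 2.83), and was listed at 0 in all ECC-1 libraries. SLC6A14, a broad carrier of neutral and cationic amino acids, had 15 reads in controls, 32 with estradiol and 34 with genistein. A fit over all symbols without the filter called SLC7A2 (adjusted p = 0.043) and SLC6A15 (0.000647) with estradiol in ECC-1, SLC6A15 with BPA (0.00243) and genistein (0.000316) there, and in T-47D SLC6A14 with estradiol (0.039) and genistein (0.0123) and SLC6A11 with genistein (0.00259). That fit did not call SLC6A11 with estradiol or BPA, SLC7A2 with BPA or genistein, or SLC1A2 with any treatment. SLC43A1, a system L carrier, read 0.253 to 0.816 RPKM over all 16 libraries.

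**Figure D5:**
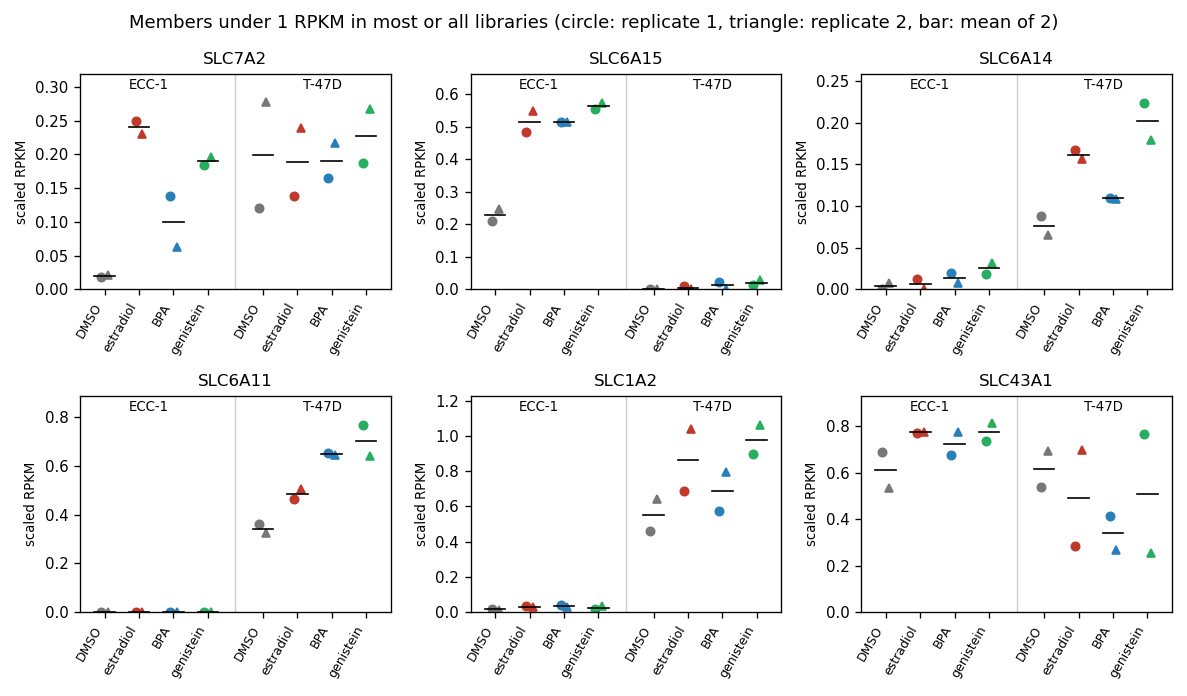
Scaled RPKM of 6 members that were under the filter (y axis, linear, from 0) in every library, by treatment within ECC-1 (left of each panel) and T-47D (right); circles are first and triangles second libraries, and bars are the mean of 2. SLC7A2 and SLC6A15 in ECC-1 are lowest in DMSO, SLC7A2 at 0.0187 and 0.0217 RPKM, and SLC6A11 in T-47D is lowest in DMSO at 0.36 and 0.323 RPKM.

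Genes that work with the carriers were counted from lists of known pathway members. Of 18 genes of the amino acid response, the program by which ATF4 raises carriers and synthetases when amino acids are short, 0 changed in any of the 6 treatment comparisons by limma. Over all genes 0 to 3.22% changed per comparison, so 0 calls in a list of this length say nothing particular about it. ATF4 read 450 and 428 RPKM in ECC-1 controls and 324 and 455 with estradiol (log2 difference -0.19), and its target ASNS, asparagine synthetase, 143 and 121 against 102 and 131 (-0.18). In T-47D ASNS read 9.15 and 9.66 in controls and 11.1 and 16.4 with estradiol (0.50, adjusted p = 0.125). In ECC-1 the estradiol libraries overlapped the controls in ATF4 and in ASNS. Any part of this program in the changes of the carriers was not tested.

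Among 12 genes of serine, glycine, proline and one-carbon synthesis, 2 rose with estradiol in T-47D, where 2.1% of all genes did, and 0 changed in the other 5 treatment comparisons. They were MTHFD1L, a mitochondrial one-carbon enzyme, at 1.28 and 1.21 RPKM against 2.15 and 2.57 (log2 difference 0.71, adjusted p = 0.0181), and PYCR1, the last enzyme of proline synthesis, at 47.4 and 43.3 against 70.3 and 63.2 (0.55, adjusted p = 0.0323). Of 13 tested amino acid carriers outside the 7 families, SLC25A22, a mitochondrial glutamate carrier, rose with estradiol in ECC-1 (9.37 and 10.5 against 19.4 and 14.7 RPKM, 0.74, adjusted p = 0.0278). SLC25A15, the mitochondrial ornithine carrier, rose with estradiol in T-47D (4.6 and 5.19 against 8.11 and 7.94, 0.66, adjusted p = 0.00255). In those comparisons 1.42% of all genes rose in ECC-1 and 2.1% in T-47D. Without both first estradiol libraries MTHFD1L (0.81, adjusted p = 0.00909) and SLC25A15 (0.65, adjusted p = 0.00432) still passed, and PYCR1 (0.48, adjusted p = 0.0775) and SLC25A22 (0.54, adjusted p = 0.149) did not. Without the second T-47D DMSO library MTHFD1L and PYCR1 missed the threshold (adjusted p = 0.17 and 0.324), as they did without the first (0.0813 and 0.0944), and SLC25A22 missed it without either ECC-1 DMSO library (0.313 and 0.101). In each of these 4 genes the treated libraries did not overlap the controls. By limma, no treatment changed a gene among 12 of glutamine and glutamate metabolism, 6 tested of glutathione synthesis, or 26 of lysosomal amino acid sensing and mTORC1. With 0 to 3.22% of all genes called per comparison, these counts say nothing particular about the lists. Between the lines in DMSO, T-47D was higher in 2 and lower in 10 of the 12 genes of serine, glycine, proline and one-carbon synthesis, where 39.6% of all genes were higher and 37.1% lower; the median log2 difference was -1.51 over the list and 0.04 over all genes. In the amino acid response list 5 of 18 were higher and 9 lower, or 77.8% called, close to the 76.7% over all genes, so this count says nothing particular about the list.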

How the data were processed

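RNA was sequenced from 16 libraries, with 2 for each combination of line and treatment. The authors deposited RPKM values for 32062 RefSeq transcripts per library. Alignment used Bowtie and the build hg19, per the submitters' processing notes. The version, the counter and the treatment of reads that match several places are not given in the sources used here, and per the labels' protocols the transposase libraries keep no strand. RPKM values are not counts, so no count model was used. The steps of 1 read between low values gave the depth. In each library, 62.3 to 64.5% of values below 10 reads came within 0.1 of whole reads, against 20% for a random spread. No 2 libraries were identical.

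Per symbol the row with the highest mean was kept. Libraries were scaled by the median ratio over 7547 genes that reached 5 RPKM in every library. The 13827 genes that reached 1 RPKM before scaling in 2 or more libraries were fitted on log2(scaled RPKM + 0.5) with limma 3.58.1 in R 4.3.3, with 8 group means, eBayes and a mean-variance trend (8 residual and 6.9 prior degrees of freedom). The pseudocount makes changes of low genes smaller. Benjamini-Hochberg adjustment ran over all tested genes in each of 12 contrasts, and 0.05 was the threshold. With 2 libraries a group, no permutation within a contrast could pass it. On simulated data with 200 changed genes, the fit recovered 77 to 85% of changes of 1 on the log2 scale and 18 to 22.7% of changes of 0.5 over the 6 treatment contrasts, and 2.66 to 6.15% of its calls were false, the highest for estradiol in ECC-1.

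Members and lists were chosen with earlier results of these data known. Named are members past the threshold, the 8 with the highest control levels, up to 12 each way between lines, a set of 16 carriers named whatever their values, and at most 4 genes a pathway list, with ASNS and ATF4. SLC6A11, SLC6A15, SLC1A2 and other members outside that rule were chosen after their values were seen. Of 33 older and newer symbols on the sensing list, 26 were in the files. Promoters come from RefSeq, on another build than the files, and were matched by symbol. Transcript lengths for depth and for shared stretches came from GENCODE transcripts.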

Additional observations from a re-analysis of the deposited data

Results flagged for a closer look

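The response of SLC6A6, the taurine transporter, differed between the lines by a test of the difference itself. With estradiol the T-47D log2 difference minus that of ECC-1 was -1.89 (limma adjusted p = 0.00123), with libraries at 14.7 and 10.9 RPKM against controls at 2.54 and 2.81 in ECC-1, and 15.8 and 13.2 against 14.5 and 11.4 in T-47D. With genistein it was -1.39 (limma adjusted p = 0.0234), with 9.78 and 8.96 RPKM in ECC-1 and 17.7 and 13.2 in T-47D. The genistein call was lost in 7 of 26 alternatives, 6 of them leaving out a single library and the other using no low-value filter. Both tests use the same DMSO libraries. The control level of the gene also differed between lines, and its part in the result was not tested.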

How the results depend on the processing

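Over 107 pairs of a named member and a contrast, 2865 values under the alternatives gave 0 changes of sign among called results. Of these values, 76 lost and 20 gained the threshold. Leaving out 1 library at a time gave 1 to 13 members for estradiol in ECC-1, 0 to 0 for BPA and 1 to 5 for genistein there, and in T-47D 0 to 10 for estradiol and 0 to 0 for BPA and for genistein. Genistein against BPA stayed at 0 to 0 in both lines, and the lines differed in 20 to 26. The interactions gave 1 to 7 for estradiol, 0 to 1 for genistein and 0 to 0 for BPA.

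Array weights gave 2 members for BPA and 9 for genistein in ECC-1, 1 for genistein against BPA there and 0 for estradiol in T-47D. With both first estradiol libraries left out, 6 members were called for genistein in ECC-1, 1 for estradiol and 2 for genistein in T-47D, and 2 for the estradiol interaction. Without a low-value filter there was 1 for BPA in ECC-1, 2 for genistein in T-47D and 2 each for the estradiol and genistein interactions. A pseudocount of 0.1 gave 1 for genistein in ECC-1 and 0 for estradiol in T-47D, and one of 1 gave 2 for the estradiol interaction. A mean of at least 5 RPKM left 1 for estradiol in T-47D and 14 between the lines, with fewer genes tested, and a fit on T-47D alone gave 0 for estradiol. Otherwise the cause was not tested. That single-line fit was not made for interactions. Shares of all genes called under the alternatives are not given here, so member counts under them say nothing particular about the families.

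Between groups, deviations of same-numbered libraries correlated at -0.19 to 0.301 in ECC-1, over 0.1 in 3 of 6 pairs of groups, and at -0.224 to 0.408 in T-47D, over 0.1 in 4 of 6. The numbers were not taken as pairs, since not every pair was over 0.1 in either line and the labels do not say that a number marks a shared batch. With the replicate number as a block, 6 members were called for estradiol and 3 for genistein in ECC-1, 2 for estradiol in T-47D, 24 between the lines, 2 for the estradiol interaction and 1 for genistein against BPA in ECC-1. At the estimated depths a 2 kb transcript at 1 RPKM rests on 34.8 to 58.8 reads, which limits the members below that level, and each group holds 2 libraries.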
